A study of Mus musculus with 12 samples.

Results

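The genes described here are 46 that act in the entry into S phase and in DNA replication, chosen by name: the MCM2-7 helicase and its loaders, the proteins that fire origins, the sliding clamp and its loader, single-strand binding proteins, polymerases, enzymes that supply nucleotides, and regulators of the G1/S step. Of the 46 listed, 45 were found by symbol among the 19494 named genes of the array, each with 1 probe set. Mcm7 was not matched and is not analysed here. Their measured values played no part in the listing, although the list was drawn up with earlier results of these data known.

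The arrays compared 4 groups of mouse bone marrow cells, with 3 arrays in each: NFAT5-deficient hematopoietic stem cells (HSC), wild-type HSC, NFAT5-deficient multipotent progenitors (MPP) and wild-type MPP. NFAT5-deficient donors were Nfat5 fl/fl Vav-Cre mice, and wild-type donors were Nfat5 +/+ Vav-Cre mice, so both genotypes carried the Cre transgene, whose Vav promoter is active across blood cells. All donors were CD45.2, and their marrow had been transplanted into irradiated wild-type CD45.1 mice. Donor-derived cells were sorted from the recipients 13 weeks later within the LSK compartment (lineage-negative, Sca-1-positive, Kit-positive), HSC as CD48-CD150+ and MPP as CD48+CD150-. Arrays carry the numbers 64, 70 and 76 for NFAT5-deficient and 66, 67 and 75 for wild-type cells, and 3 values of a group are given in that order. The labels give no ages and do not say whether the 3 arrays of a group came from separate animals, so p-values measure only the spread between these samples, which may be technical. Every sample started with 300 pg of total RNA, which was amplified before labelling.

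Before S phase, the origin recognition complex with CDC6 and CDT1 loads the MCM2-7 helicase onto DNA, a step called licensing. CDC7 kinase, MCM10, CDC45 and the GINS complex then turn the loaded helicase into a running replication fork, where primase, the polymerases, the clamp PCNA and RPA copy the strands. E2F transcription factors, released from the retinoblastoma family proteins in part by cyclin E and its kinase, switch on many of these genes at the G1/S step. HSC are known as largely quiescent cells that divide rarely, and MPP as progenitors that divide more often.

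The arrays bore out the labelled populations. The gate gene Slamf1 (CD150) averaged 10.08 ± 0.74 and 9.84 ± 0.24 log2 units in NFAT5-deficient and wild-type HSC, against 6.46 ± 0.42 and 6.26 ± 0.14 in the MPP of these genotypes (SD, n = 3 each). Cd48 was higher in MPP, at 9.26 to 10.61 on 6 arrays, than in HSC, at 5.39 to 7.85 on 6 arrays, and Kit lay between 10.95 and 11.73 on all 12. Nfat5 itself read 8.76, 8.34 and 7.62 in NFAT5-deficient HSC, against 9.81, 9.39 and 9.27 in wild-type HSC, and 7.63, 7.73 and 8.40 in NFAT5-deficient MPP, against 8.78, 8.85 and 8.12 in wild-type MPP. It was lower on each NFAT5-deficient HSC array than on any wild-type HSC array, while the MPP groups overlapped, and the place of its probe set relative to the deleted part was not given in the sources used here. Mature neutrophil genes (9 of 9 listed were measured) set 2 HSC libraries apart: their mean was 5.42, 5.53 and 5.51 in NFAT5-deficient HSC, against 6.89, 7.38 and 5.52 in wild-type HSC. In MPP the mean was 6.49, 6.62 and 6.02 on NFAT5-deficient arrays, against 6.95, 7.02 and 5.96 on wild-type arrays. Arrays 66 and 67 were thus the highest in both populations. Some medians and counts that rest on wild-type HSC, and the Pola1 call, are also given without HSC arrays 66 and 67. This alternative was chosen after the HSC values were seen. Differences of other single genes and counts of genes without overlap are not given that way. MPP arrays 66 and 67 were not left out together.

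E2F sites are the shared sequence for which this gene group is best known, so the promoters were searched for 4 E2F octamers, TTTCCCGC, TTTGGCGC, TTTCGCGC and TTTGCCGC, and for CCAAT, on both strands and with overlaps allowed. RefSeq promoter windows (build GRCm38.p6, 250 bases before to 50 after a start) were at hand for 38 of the 46 genes. An octamer lay in 14 of these 38 genes (36.8%), against 704 of 27025 genes with a window (2.6%). CCAAT, a common promoter motif, lay in 23 of the 38 (60.5%), against 41.1% of all genes with a window. The stretches below are from the 4 genes with an octamer, among those measured, whose HSC and MPP values gave the smallest p, and capitals mark octamers and CCAAT motifs on either strand. They run 5′ to 3′ on the strand of the gene: 30 bases around the octamer of Pola1 (chrX:93632275-93632304, minus strand) and of Pole2 (chr12:69228162-69228191, minus strand), and the bases before every annotated start of Mcm5 (chr8:75109259-75109467, plus strand) and Mcm6 (chr1:128359706-128359955, minus strand).
Pola1: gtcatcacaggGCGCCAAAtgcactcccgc
Mcm5: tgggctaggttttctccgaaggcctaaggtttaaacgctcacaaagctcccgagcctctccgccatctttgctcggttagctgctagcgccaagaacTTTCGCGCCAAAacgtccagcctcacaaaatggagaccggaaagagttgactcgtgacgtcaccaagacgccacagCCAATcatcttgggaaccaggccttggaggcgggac
Pole2: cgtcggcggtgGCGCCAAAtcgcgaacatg
Mcm6: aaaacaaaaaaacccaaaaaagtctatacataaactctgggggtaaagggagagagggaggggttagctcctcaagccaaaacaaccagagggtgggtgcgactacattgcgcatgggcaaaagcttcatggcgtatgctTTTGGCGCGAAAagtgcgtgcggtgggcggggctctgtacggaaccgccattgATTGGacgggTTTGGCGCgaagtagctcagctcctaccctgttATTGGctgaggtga
Pola1 and Pole2, which encode subunits of polymerases alpha and epsilon, hold the octamer TTTGGCGC on the opposite strand. In Pola1 the octamer lies before the start (bases -138 to -131), and in Pole2 it lies after the start (bases 11 to 18). In both MCM promoters 2 octamers of opposite strands overlap, and the Mcm6 stretch holds a further octamer between its 2 CCAAT motifs. A match is a description of these letters and was not tested as a binding site.

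Averaged over the 45 measured genes, the level was lower in HSC than in MPP within each genotype, and within HSC it was higher in NFAT5-deficient cells. The mean log2 intensity was 8.74, 8.84 and 8.73 in NFAT5-deficient HSC, 8.50, 8.49 and 8.60 in wild-type HSC, 9.09, 8.99 and 9.09 in NFAT5-deficient MPP and 8.83, 8.81 and 9.02 in wild-type MPP. Every HSC array lay below every MPP array of its genotype. Each NFAT5-deficient HSC array also lay above each wild-type HSC array, whereas the MPP groups overlapped, since NFAT5-deficient array 70 (8.99) was below wild-type array 75 (9.02). The group means were 8.77 ± 0.06 in NFAT5-deficient HSC, 8.53 ± 0.06 in wild-type HSC, 9.06 ± 0.06 in NFAT5-deficient MPP and 8.89 ± 0.12 in wild-type MPP (SD, n = 3 each). The mean over all named genes stayed within 6.81 to 6.85 on the 12 arrays. The HSC minus MPP difference of the replication mean was -0.29 in NFAT5-deficient and -0.36 in wild-type cells, larger than the pooled SD between arrays of a group (0.0794). In bulk RNA, fewer replicating cells and less RNA of these genes per cell cannot be told apart.

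**Figure D1:**
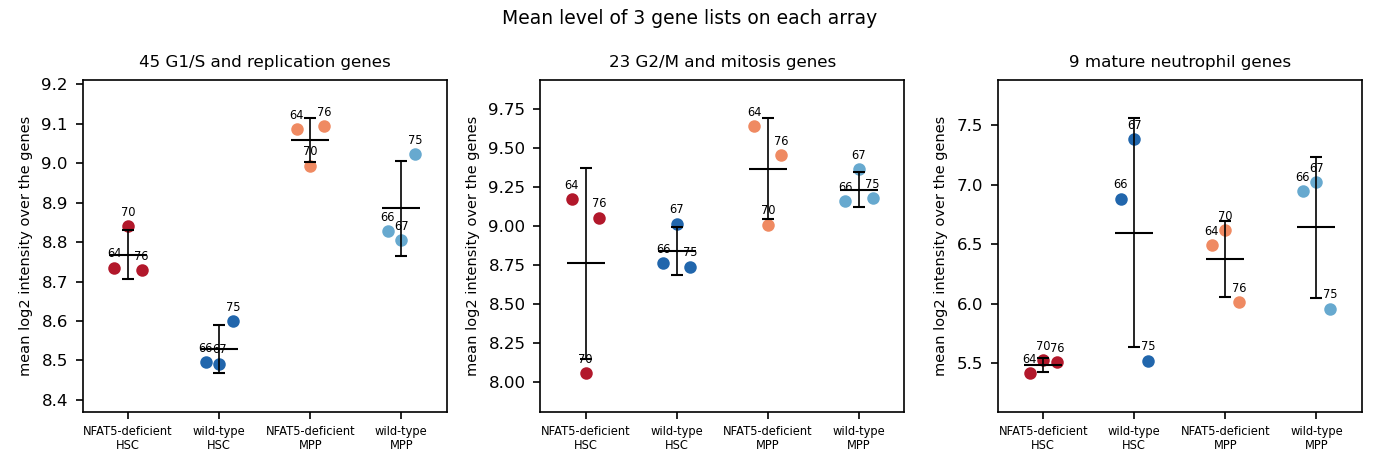
Mean log2 intensity over the genes of 3 lists on each array (points, with array numbers), by group; the black bar is the group mean and the whiskers its SD over 3 arrays, and each panel has its own axis, which does not start at 0. The replication genes read 8.73 to 8.84 on NFAT5-deficient HSC arrays and 8.49 to 8.60 on wild-type HSC arrays, each group below the MPP arrays of its own genotype, while neutrophil genes spread from 5.52 to 7.38 in wild-type HSC.

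Between the populations, 41 of the 45 genes had a lower value in HSC when the genotypes were averaged, with a median difference of -0.23 log2 units. Over all 19494 genes the median was 0.06, and 36.6% had a lower value (44.2% of the 11696 genes above a level of 6.15, which 44 of the 45 passed). Only Pola1 passed limma's test at an adjusted p under 0.05 over all genes, where 0.313% of genes were called lower and 0.61% in either direction. A further 13 genes had an unadjusted limma p under 0.05, which makes 14 with Pola1, all lower in HSC, where 4.71% of all genes were lower at that threshold. The 4 genes with a higher value in HSC were Cdc45 (0.32), Pold3 (0.31), Slbp (0.23) and Ccne1 (0.19), and none of them passed. Without wild-type HSC arrays 66 and 67, 36 of the 45 had a lower value, the median was -0.24 and 9 genes had an unadjusted p under 0.05.

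**Figure D2:**
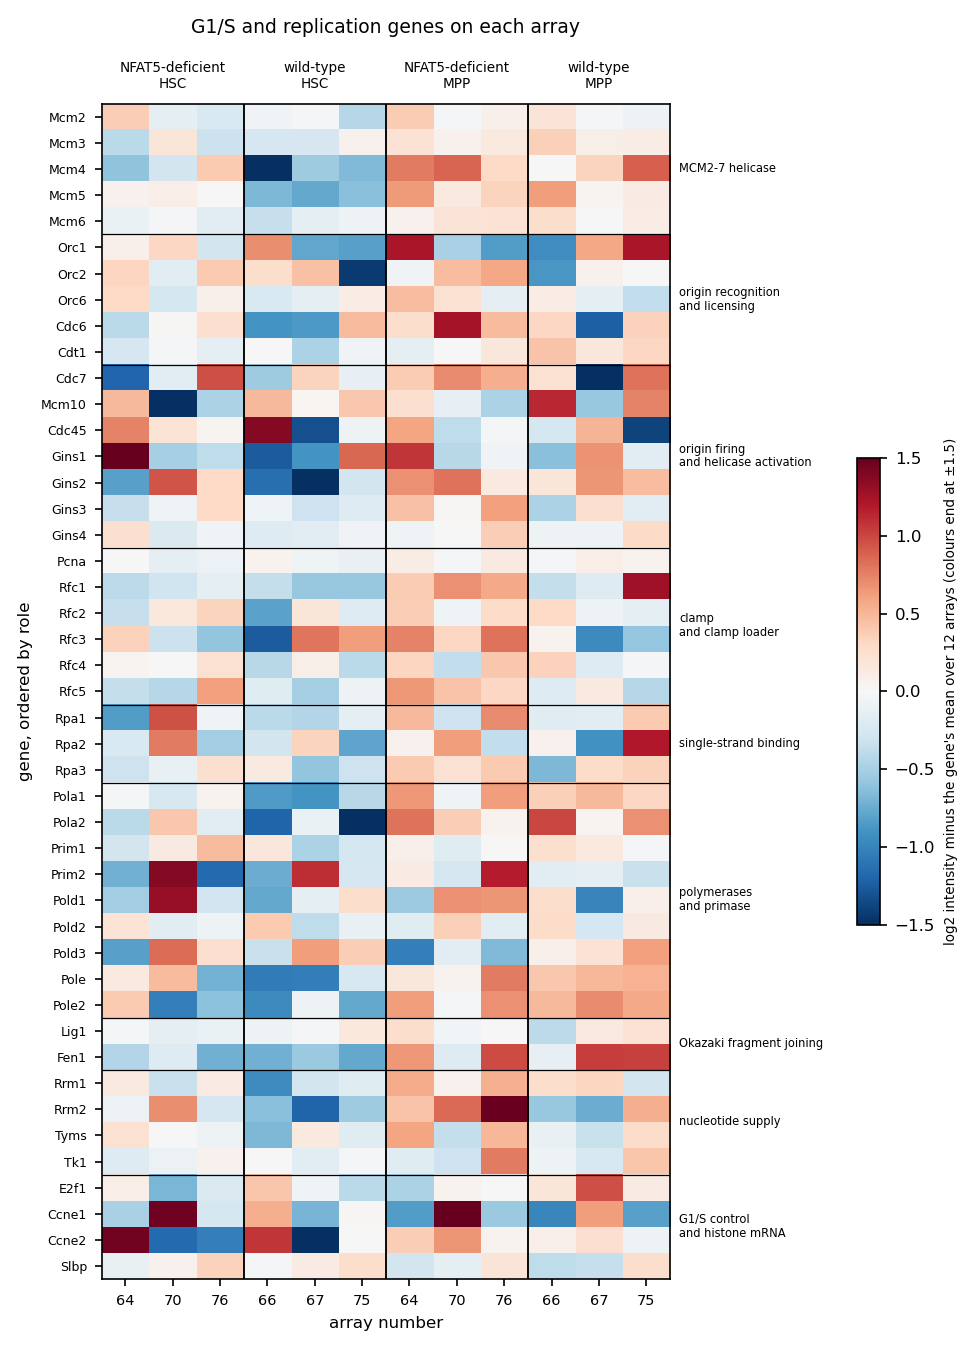
Log2 intensity of each of the 45 genes (rows, ordered by role) on each of the 12 arrays (columns), minus the gene's mean over the arrays; colours end at ±1.5. In the Mcm5 row the 3 wild-type HSC columns (7.99 to 8.14) are the lowest of the 12, while the Ccne1 row has its highest values on array 70 of both NFAT5-deficient populations.

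All 5 measured genes of the MCM2-7 helicase, the ring that unwinds DNA at the fork, had a lower value in HSC (median difference -0.32, range -1.06 to -0.18), and 4 of them had an unadjusted limma p under 0.05. Mcm4 read 8.36, 8.69 and 9.36 in NFAT5-deficient HSC, 7.46, 8.43 and 8.30 in wild-type HSC, 9.74, 9.84 and 9.27 in NFAT5-deficient MPP and 8.97, 9.29 and 9.86 in wild-type MPP. The wild-type HSC values all lay below the wild-type MPP values, but in NFAT5-deficient cells HSC array 76 lay above MPP array 76. Its difference was -1.06 (SE 0.26, limma adjusted p = 0.124). Mcm5 read 8.82, 8.86 and 8.76 in NFAT5-deficient HSC, 8.08, 7.99 and 8.14 in wild-type HSC, 9.40, 8.91 and 9.09 in NFAT5-deficient MPP and 9.39, 8.81 and 8.88 in wild-type MPP. Each HSC array of either genotype was below each MPP array of the same genotype, and the difference was -0.64 (SE 0.16, limma adjusted p = 0.141). Mcm6 behaved likewise on a smaller scale, at 10.67, 10.75 and 10.61 in NFAT5-deficient HSC, 10.43, 10.62 and 10.69 in wild-type HSC, 10.83, 10.96 and 10.99 in NFAT5-deficient MPP and 11.03, 10.77 and 10.88 in wild-type MPP. Its difference was -0.28 (SE 0.09, limma adjusted p = 0.234). Mcm5 and Mcm6 were the 2 genes of the 45 whose HSC and MPP values did not overlap in either genotype, against 0.964% of all genes with that pattern (1.44% of those above the level of 6.15). The differences of Mcm3 and Mcm2 were -0.32 and -0.18.

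Among the other origin genes, the 5 of recognition and licensing all had lower values in HSC, between -0.47 for Cdc6, the ATPase that loads the helicase, and -0.05 for Orc6. Cdt1, the other loader, had -0.32 with an unadjusted limma p of 0.0382. Orc1 (-0.26) and Orc2 (-0.07), subunits of the recognition complex, had the remaining differences of this role. Of the 7 genes of origin firing, 6 had lower values, led by Gins2, a subunit of the GINS complex that completes the active helicase. Gins2 read 8.84, 10.60 and 9.95 in NFAT5-deficient HSC, 8.53, 7.67 and 9.38 in wild-type HSC, 10.34, 10.47 and 9.80 in NFAT5-deficient MPP and 9.84, 10.31 and 10.12 in wild-type MPP. Wild-type HSC lay wholly below wild-type MPP, while NFAT5-deficient HSC array 70 held the highest value of all 12. Its difference was -0.98 (95% confidence interval -1.74 to -0.23, limma adjusted p = 0.294). The remaining GINS genes had -0.17 (Gins1), -0.23 (Gins3) and -0.15 (Gins4), none with an unadjusted p under 0.05. The kinase gene Cdc7 had -0.23 and Mcm10, which helps to start the helicase, -0.32, both with intervals that spanned 0.

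The polymerase genes held the clearest single difference. Pola1, the catalytic subunit of polymerase alpha that extends RNA primers, read 10.71, 10.48 and 10.77 in NFAT5-deficient HSC, 9.87, 9.82 and 10.31 in wild-type HSC, 11.37, 10.67 and 11.34 in NFAT5-deficient MPP and 11.07, 11.21 and 11.03 in wild-type MPP. Wild-type HSC lay below wild-type MPP with no overlap, while NFAT5-deficient MPP array 70 (10.67) fell among the NFAT5-deficient HSC values. Pola1 fell in HSC, with a difference of -0.79 (SE 0.15, 95% confidence interval -1.11 to -0.47, limma adjusted p = 0.0424). The call was lost in 10 of the 12 fits that left out 1 array, held without wild-type HSC array 75 or NFAT5-deficient MPP array 70, and was lost without both wild-type HSC arrays 66 and 67 (-0.63, adjusted p = 0.167). The difference kept its sign in each of these fits, between -0.90 and -0.73 with 1 array left out. Its partner subunit Pola2 read 7.42, 8.23 and 7.67 in NFAT5-deficient HSC, 6.62, 7.72 and 6.31 in wild-type HSC, 8.64, 8.20 and 7.88 in NFAT5-deficient MPP and 8.83, 7.87 and 8.51 in wild-type MPP. Wild-type HSC lay wholly below wild-type MPP, and the difference was -0.99 (SE 0.29, limma adjusted p = 0.205). The primase genes Prim1 (-0.08) and Prim2 (-0.13), whose proteins sit in the complex with polymerase alpha, had smaller differences.

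Polymerase epsilon copies the leading strand. Its catalytic gene Pole read 8.03, 8.36 and 7.18 in NFAT5-deficient HSC, 6.84, 6.85 and 7.65 in wild-type HSC, 8.06, 7.94 and 8.67 in NFAT5-deficient MPP and 8.30, 8.38 and 8.41 in wild-type MPP, and Pole2 read 8.46, 7.05 and 7.45 in NFAT5-deficient HSC, 7.11, 7.99 and 7.30 in wild-type HSC, 8.69, 8.05 and 8.75 in NFAT5-deficient MPP and 8.55, 8.78 and 8.63 in wild-type MPP. For both genes the wild-type groups did not overlap and the NFAT5-deficient groups did. The differences were -0.81 for Pole (limma adjusted p = 0.233) and -1.02 for Pole2 (adjusted p = 0.166). The 3 genes of polymerase delta, which copies the lagging strand, had values nearer 0 or above it: Pold1 and Pold2 each had -0.05, and Pold3 had 0.31 with a 95% confidence interval of -0.33 to 0.96. Each of these intervals spans 0.

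Fen1, the nuclease that trims Okazaki fragments, had the lowest difference of the 45. It read 6.24, 6.48 and 5.96 in NFAT5-deficient HSC, 5.96, 6.12 and 5.91 in wild-type HSC, 7.33, 6.48 and 7.66 in NFAT5-deficient MPP and 6.55, 7.71 and 7.70 in wild-type MPP. The wild-type groups did not overlap, and in NFAT5-deficient cells HSC array 70 and MPP array 70 met at 6.48. The difference was -1.13 (SE 0.25, limma adjusted p = 0.0928), whereas Lig1, the ligase that joins the fragments, had -0.07 (-0.37 to 0.24). All 6 clamp and clamp loader genes had lower values in HSC. Rfc1, the large subunit of the clamp loader, read 9.33, 9.43 and 9.58 in NFAT5-deficient HSC, 9.36, 9.16 and 9.16 in wild-type HSC, 10.10, 10.41 and 10.29 in NFAT5-deficient MPP and 9.36, 9.53 and 11.00 in wild-type MPP. NFAT5-deficient HSC lay wholly below NFAT5-deficient MPP, and wild-type MPP arrays 66 and 67 lay close to the HSC values. Its difference was -0.78 (limma adjusted p = 0.26), and those of Rfc2 to Rfc5 lay between -0.31 and -0.13. Pcna, the clamp itself, had the smallest spread of all the genes described (pooled SD 0.072) and a difference of -0.12 (limma adjusted p = 0.43). The 3 single-strand binding genes had differences of -0.31 (Rpa1), -0.23 (Rpa2) and -0.32 (Rpa3).

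The 4 genes of nucleotide supply all had lower values in HSC. Rrm1, the large subunit of ribonucleotide reductase, read 10.69, 10.21 and 10.67 in NFAT5-deficient HSC, 9.60, 10.27 and 10.37 in wild-type HSC, 11.10, 10.61 and 11.07 in NFAT5-deficient MPP and 10.81, 10.87 and 10.27 in wild-type MPP. In each genotype HSC and MPP overlapped, with HSC arrays 64 and 76 above MPP array 70 in NFAT5-deficient cells and HSC array 75 above MPP array 75 in wild-type cells, and the difference was -0.49 (limma adjusted p = 0.323). Its partner Rrm2 had -0.66 (adjusted p = 0.406), thymidylate synthase Tyms -0.19 and thymidine kinase Tk1 -0.13. The regulators of the G1/S step were split, with lower values for Ccne2 (-0.44) and E2f1 (-0.29) and higher ones for Ccne1 and Slbp, which binds histone mRNA. E2f1 was the only gene below the level of 6.15, with group means of 5.49 in NFAT5-deficient HSC, 5.74 in wild-type HSC, 5.62 in NFAT5-deficient MPP and 6.18 in wild-type MPP.

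**Figure D3:**
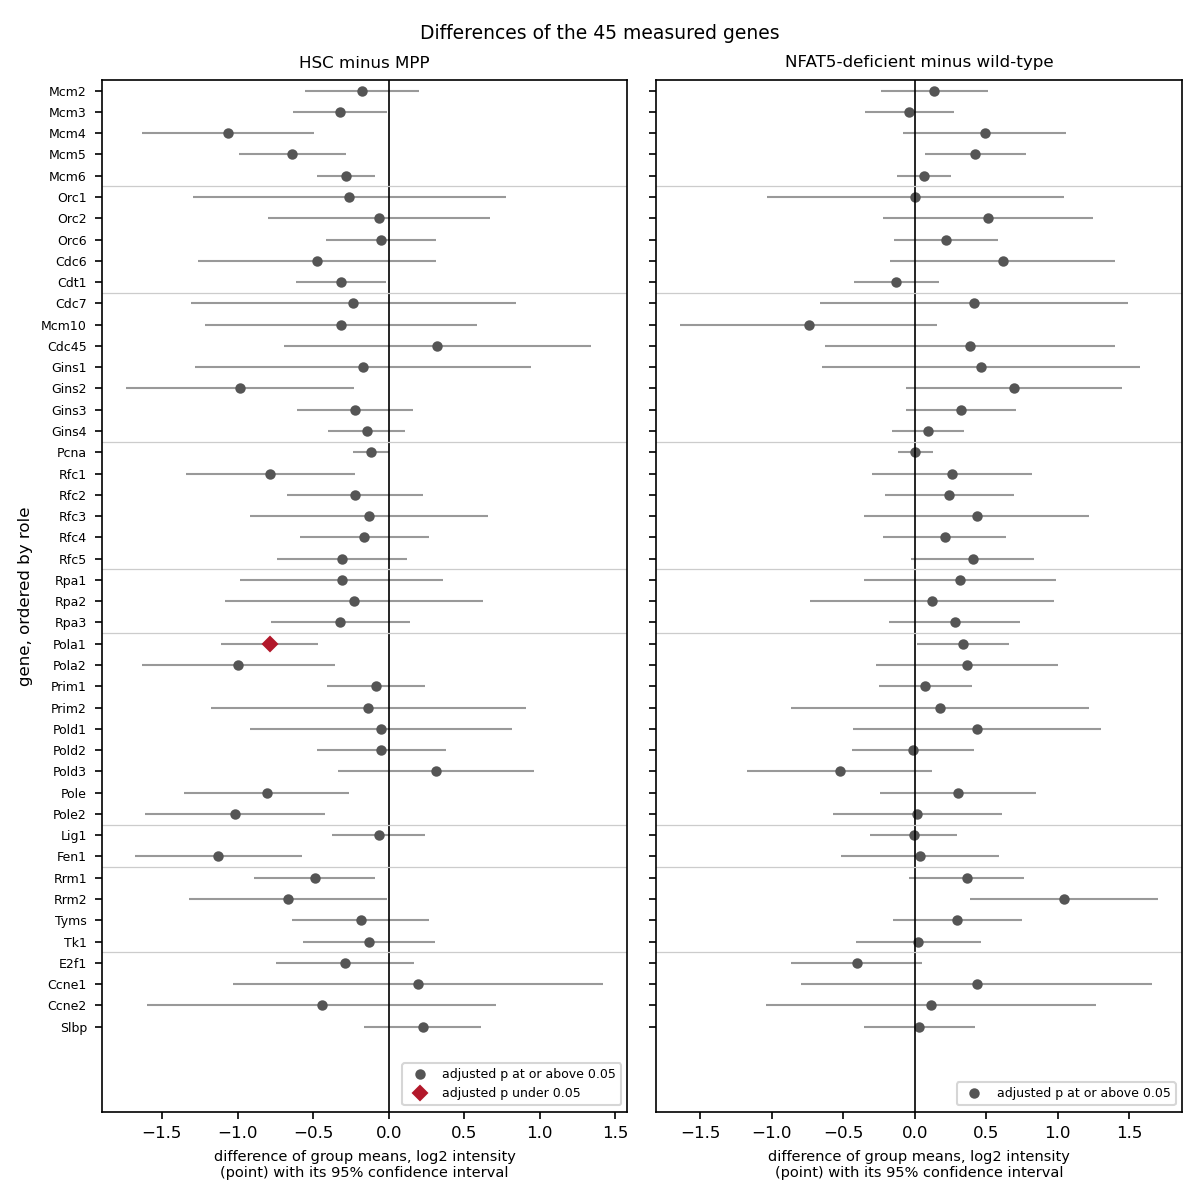
Difference of group means for each of the 45 genes (points) with its 95% confidence interval (lines), on the log2 scale: left, HSC minus MPP averaged over the genotypes; right, NFAT5-deficient minus wild-type averaged over the populations. On the left 41 points lie below 0, with Pola1 (red diamond, -0.79) past the test; on the right 38 lie above 0 and none is past the test.

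Within each genotype the same direction prevailed. In NFAT5-deficient cells 38 of 45 had a lower value in HSC (median -0.25) and in wild-type cells 36 did (median -0.27), against medians of 0.07 and 0.05 over all genes, of which 37.9% and 41.4% were lower. No gene of the 45 was called by limma in either genotype, where 0.21% and 0.164% of all genes were. At an unadjusted p under 0.05 there were 5 in NFAT5-deficient cells (2.95% of all genes lower) and 11 in wild-type cells (3.93% of all genes lower). With 1 array left out the first count ran from 1 to 4. It was 1 without NFAT5-deficient MPP array 64 or 76 and 3 without NFAT5-deficient HSC array 76. The second count was 7 without wild-type HSC arrays 66 and 67. HSC lay wholly below MPP for 4 genes in NFAT5-deficient cells (5.39% of all genes) and for 11 in wild-type cells (4.74% of all genes). The 4 were Rfc1, Cdc6, Mcm5 and Mcm6, and the share of 4 in 45 stood near that background. This holds for the uncentred values, and the count was larger after the arrays were centred, as given below. The genotypes, which have no array in common, had lower values in HSC together for 32 of 45 genes (71.1%), against 20.4% of all genes and 26.6% of those above the level of 6.15. Such a shared count follows in part from the 38 and 36 genes lower within each genotype, so it does not measure agreement gene by gene. Across the 45 genes the differences in the genotypes had a Pearson correlation of 0.39, against 0.36 over all genes. The smallest adjusted p was that of Pola1 in wild-type cells (-1.10, limma adjusted p = 0.0828), whose counterpart in NFAT5-deficient cells was -0.48 (adjusted p = 0.613). The median in wild-type cells was -0.13 without MPP array 75 and -0.17 without HSC arrays 66 and 67.

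**Figure D4:**
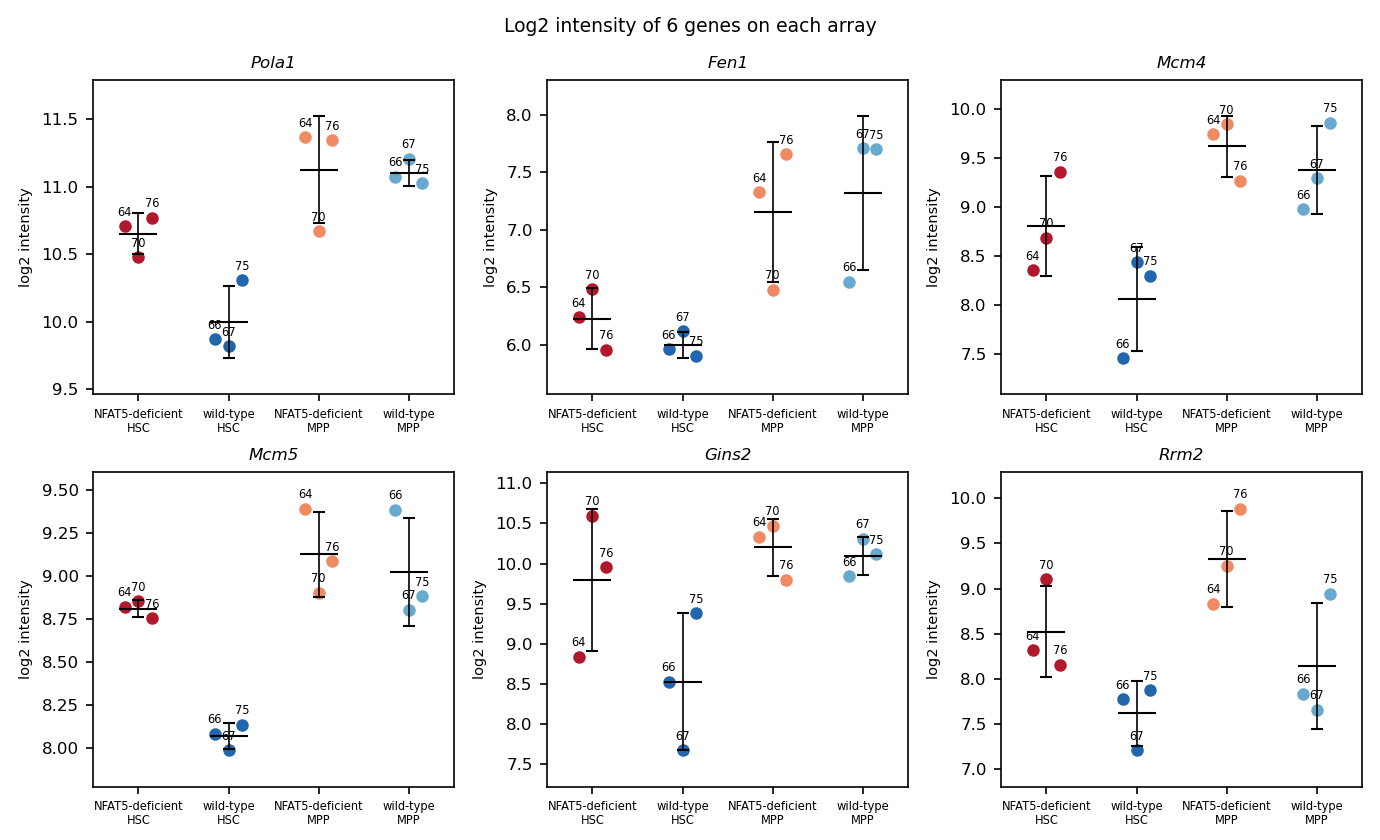
Log2 intensity of Pola1, Fen1, Mcm4, Mcm5, Gins2 and Rrm2 on each array (points, with array numbers), by group, with the group mean and SD over 3 arrays; axes do not start at 0 and differ between panels. Mcm5 on wild-type HSC arrays (7.99 to 8.14) sits apart from the other 9 arrays (8.76 to 9.40), and Gins2 spreads over 7.67 to 9.38 in wild-type HSC.

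Most genes of neighbouring pathways also had lower values in HSC. Of 12 other licensing and firing genes, 12 had a lower value in HSC (median -0.67), and Mcmbp, which binds and remodels MCM complexes, passed the test. Mcmbp read 8.52, 8.11 and 8.16 in NFAT5-deficient HSC, 8.13, 7.72 and 8.12 in wild-type HSC, 9.11, 9.14 and 9.30 in NFAT5-deficient MPP and 9.17, 9.40 and 9.28 in wild-type MPP. HSC and MPP did not overlap in either genotype, and the difference was -1.11 (SE 0.15, limma adjusted p = 0.00847). Of 11 genes of chromatin assembly behind the fork, 11 had lower values (median -0.28), and Uhrf1 had the smallest p; it guides maintenance DNA methylation (-0.71, adjusted p = 0.0928). Lower values were also held by 16 of 19 other fork genes (median -0.19) and 11 of 14 genes of S phase kinases, phosphatases and their regulators (-0.26). The smallest p in the latter list were those of Cdk1 (-0.74) and of Cdkn1a (-1.08), which encodes a kinase inhibitor. Among other nucleotide supply genes 9 of 14 were lower (-0.22), and among E2F and pocket protein genes 8 of 14 (-0.16). No gene of the fork, kinase, nucleotide or E2F lists passed the test. Of 23 G2/M and mitosis genes, 22 had a lower value (median -0.47), and the kinetochore gene Ska3 passed (-1.99, limma adjusted p = 0.00751). For scale, 6 of 12 HSC genes were called higher and 6 of 7 genes of MPP and lymphoid priming were called lower in HSC.

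Genes that mark other cell types were set beside these differences. Mean log2 levels in HSC and in MPP, over 6 arrays each, ran from 5.76 to 6.07 and from 6.22 to 7.04 for 6 macrophage and monocyte genes, from 7.51 to 7.95 and from 7.85 to 8.21 for 6 erythroid genes, and from 5.42 to 7.38 and from 5.96 to 7.02 for the 9 neutrophil genes. For 7 B cell genes they ran from 6.28 to 6.87 and from 6.44 to 6.78, and for 8 T and NK cell genes from 5.55 to 5.88 and from 5.74 to 5.90. The lowest HSC minus MPP differences of the macrophage and monocyte list were those of Ly6c2 (-2.19) and Ccr2 (-1.36), neither past the test. The median of that list was -0.26. Single genes of these lists passed the test between HSC and MPP: the cytotoxic granule gene Nkg7 (-1.73, limma adjusted p = 0.00356) and the carbonic anhydrase genes Car1 (-2.35, adjusted p = 0.0046) and Car2 (0.63, adjusted p = 0.0401). Their part in the replication differences was not tested.

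Between the genotypes, 38 of the 45 genes had a higher value in NFAT5-deficient cells when the populations were averaged, with a median of 0.24 log2 units, against a median of -0.06 and 37.8% of all genes with a higher value (46.1% of those above the level of 6.15). None of the 45 passed limma's test at an adjusted p under 0.05, and none of all genes did (0%), with 1386 of them (7.11%) at an unadjusted p under 0.05. Rrm2, Mcm5 and Pola1 had an unadjusted p under 0.05, all higher, against 2.48% of all genes. Counting either direction, that number was 7 when NFAT5-deficient HSC array 64 or wild-type HSC array 75 was left out, 6 with array 70 of either NFAT5-deficient population left out, 5 with wild-type MPP array 67 left out and 1 with NFAT5-deficient MPP array 64 left out. No gene of the 45 kept NFAT5-deficient above wild-type values without overlap in both populations (0.226% of all genes did). The mean over the 45 genes was higher by 0.24 in HSC and 0.17 in MPP. Without wild-type HSC arrays 66 and 67, the median of the genes was 0.20 with the populations averaged.

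In HSC, 33 of 45 had a higher value in NFAT5-deficient cells (median 0.22, against -0.05 over all genes, of which 41.6% were higher). None was called by limma, as was none of all genes (0%), with 1205 of them (6.18%) at an unadjusted p under 0.05. At that threshold 3 of the 45 were higher, against 2.68% of all genes. In either direction there were 2 with NFAT5-deficient array 70 left out, 7 with NFAT5-deficient array 64 left out and 5 with wild-type array 66 left out. With eBayes run without the trend there were 6. Mcm5 read 8.82, 8.86 and 8.76 in NFAT5-deficient HSC, against 8.08, 7.99 and 8.14 in wild-type HSC. The groups stood apart, with a difference of 0.74 (SE 0.23, limma adjusted p = 0.779). Pola1 read 10.71, 10.48 and 10.77 in NFAT5-deficient HSC, against 9.87, 9.82 and 10.31 in wild-type HSC, again without overlap, and its difference was 0.65 (SE 0.21, adjusted p = 0.779). Gins2 read 8.84, 10.60 and 9.95 in NFAT5-deficient HSC, against 8.53, 7.67 and 9.38 in wild-type HSC. These groups overlapped, since NFAT5-deficient array 64 lay below wild-type array 75, and the difference was 1.27 (SE 0.48, limma adjusted p = 0.779). Rrm2, the regulated subunit of ribonucleotide reductase, read 8.31, 9.10 and 8.15 in NFAT5-deficient HSC, against 7.77, 7.20 and 7.87 in wild-type HSC. Mcm5, Pola1 and Rrm2 were the 3 genes without overlap, against 3.55% of all genes higher without overlap, and the difference of Rrm2 was 0.91 (adjusted p = 0.81). Pola2 (0.89), Pole (0.74) and Mcm4 (0.74) had differences of similar size with overlapping groups, and the lowest difference was that of Mcm10 (-0.93, -2.20 to 0.35). The HSC minus MPP comparison in wild-type cells uses the same 3 wild-type HSC arrays, so low values there enter both.

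The neutrophil genes were lower on NFAT5-deficient than on 2 of 3 wild-type HSC arrays (8 of 9 had a lower value, median -0.92), and their part in the replication difference was not tested. On wild-type HSC array 75, where the neutrophil mean was 5.52, the mean of the replication genes was 8.60, and the lowest NFAT5-deficient HSC array read 8.73; this is 1 array. With that array alone standing for wild-type HSC, and assumed to vary like the other groups, 30 of the 45 had a higher value in NFAT5-deficient cells and the median was 0.16.

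In MPP, 32 of 45 had a higher value in NFAT5-deficient cells (median 0.11, against -0.07 over all genes, of which 38.9% were higher). None was called by limma, against 0.00513% of all genes, which is 1 gene, and 1043 genes (5.35%) had an unadjusted p under 0.05. At that threshold 3 of the 45 were higher (1.76% of all genes) and 1 lower (3.59% of all genes). These 4 became 0 with NFAT5-deficient array 76 left out, 1 with NFAT5-deficient array 64 or wild-type array 66 left out, and 2 with wild-type array 67 or 75 left out. Rrm2 read 8.83, 9.25 and 9.89 in NFAT5-deficient MPP, against 7.83, 7.65 and 8.94 in wild-type MPP, with overlap, and had a difference of 1.18 (SE 0.42, limma adjusted p = 0.896). The 2 clamp loader genes Rfc3 and Rfc5 had higher values without overlap, against 3.8% of all genes: Rfc3 read 8.06, 7.63 and 8.13 in NFAT5-deficient MPP, against 7.37, 6.37 and 6.74 in wild-type MPP, and Rfc5 read 7.36, 7.14 and 7.02 in NFAT5-deficient MPP, against 6.52, 6.86 and 6.28 in wild-type MPP. Their differences were 1.11 and 0.62 (adjusted p = 0.896 for both). Pold3, an accessory subunit of polymerase delta, read 8.75, 9.60 and 9.11 in NFAT5-deficient MPP, against 9.85, 9.99 and 10.39 in wild-type MPP, a difference of -0.92. E2f1, one of the activating E2F genes, read 5.28, 5.81 and 5.77 in NFAT5-deficient MPP, against 5.94, 6.72 and 5.88 in wild-type MPP, a difference of -0.56 (adjusted p = 0.896). Pold3, E2f1 and Cdt1 had lower values without overlap, against 8.84% of all genes. Gins3 read 7.44, 7.02 and 7.62 in NFAT5-deficient MPP, against 6.53, 7.25 and 6.83 in wild-type MPP, a difference of 0.49 with overlapping groups. The genotype differences of Mcm5 (0.10), Pola1 (0.02) and Gins2 (0.11), which had the smallest p in HSC, were small in MPP. The median of 0.11 was 0.05 with wild-type MPP array 66 left out, 0.18 with wild-type array 75 left out and 0.19 with NFAT5-deficient array 70 left out, and 0.06 after quantile normalization.

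The genotype differences of the populations were both positive for 24 of 45 genes (53.3%), against 19% of all genes and 24.8% of those above the level of 6.15, and both negative for 4. The populations have no array in common, but the labels do not say whether arrays of one number share animals. The shared count also follows in part from the 33 and 32 genes higher within HSC and within MPP. Across the 45 genes the differences in HSC and MPP had a Pearson correlation of 0.22, against 0.08 over all genes. Tested directly, the effect in HSC minus that in MPP passed for 0 of the 45 genes by limma and for 0% of all genes. At an unadjusted p under 0.05 it was also 0 of 45, against 817 of all genes (4.19%), and 0 to 3 of 45 with 1 array left out, with 3 reached without NFAT5-deficient HSC array 64 or wild-type HSC array 75. The smallest unadjusted p was that of Pola1 (0.63, 95% confidence interval -0.01 to 1.27, limma adjusted p = 0.9995), followed by Mcm5 (0.64, -0.07 to 1.35). The values of Gins2 (1.16) and Rfc3 (-1.36) lay at the ends of the range, with intervals that spanned 0, so a difference between HSC and MPP in the effect of NFAT5 was not shown for any of these genes.

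**Figure D5:**
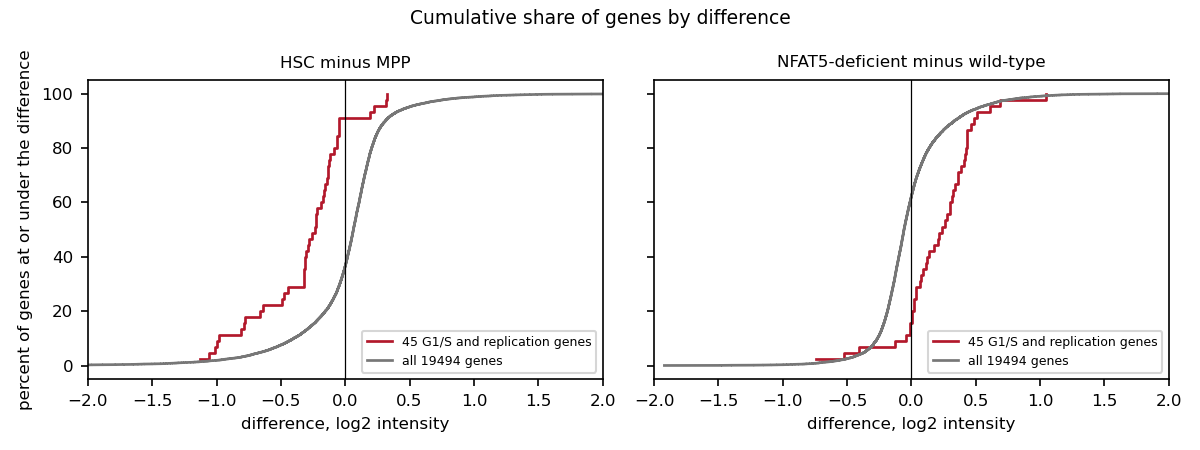
Cumulative percent of genes (y axis) at or under a difference on the log2 scale (x axis), for the 45 replication genes (red) and all 19494 genes (grey): left, HSC minus MPP; right, NFAT5-deficient minus wild-type, each averaged over the other factor. The red curve crosses 0 at 91.1% on the left and 15.6% on the right, against 36.6% and 62.2% for all genes.

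By role, the genotype difference averaged over the populations was positive for 6 of 6 clamp and clamp loader genes (median 0.25), 4 of 4 genes of nucleotide supply (0.33), 3 of 3 single-strand binding genes (0.28) and 6 of 7 origin firing genes (0.39). It was positive for 4 of 5 MCM genes (0.14), 4 of 5 recognition and licensing genes (0.22), 7 of 9 polymerase and primase genes (0.18), 3 of 4 G1/S regulators and histone mRNA genes (0.07) and 1 of the 2 Okazaki fragment genes (0.01). The average hides opposite signs for the polymerase and primase genes, whose genotype difference was positive for 7 of 9 within HSC (median 0.30) and for 3 of 9 within MPP (median -0.14). G1/S regulators and histone mRNA genes also split, with a positive difference for 1 of 4 within HSC (-0.04) and 3 of 4 within MPP (0.18), as did the medians of the Okazaki fragment genes (0.06 within HSC and -0.04 within MPP). The 7 genes with a lower value were Mcm10 (-0.74), Pold3 (-0.53), E2f1 (-0.41), Cdt1 (-0.13), Mcm3 (-0.04), Pold2 (-0.01) and Lig1 (-0.01), none past the test. Of other licensing and firing genes, 9 of 12 had a positive difference within HSC (median 0.40) and 3 of 12 within MPP (median -0.10), for an averaged median of 0.18. S phase kinases, phosphatases and their regulators had mostly positive differences within HSC (10 of 14, median 0.33), within MPP (10 of 14, 0.22) and averaged (12 of 14, 0.23). Cdk2, the kinase of cyclin E, was at 0.45. G2/M genes (14 of 23, median 0.05, with -0.15 within HSC and 0.08 within MPP) and other nucleotide supply genes (7 of 14, median 0.03) were split. The latter had a positive difference for 6 of 14 within HSC (-0.05) and 8 of 14 within MPP (0.08). Other fork genes were positive for 9 of 19 within HSC (median -0.03) and 13 of 19 within MPP (0.18). Chromatin assembly genes were positive for 5 of 11 within HSC (-0.02) and 8 of 11 within MPP (0.165). E2F and pocket protein genes were positive for 10 of 14 within HSC (0.20) and 11 of 14 within MPP (0.23).

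Deviations from the group means correlated at 0.014 on average over all pairs of the 45 genes, across 12 arrays with 8 residual degrees of freedom, a description only. The median pooled SD of a gene was 0.43, against 0.38 for genes above the level of 6.15 and 0.25 for all genes. It ran up to 1.09 for Ccne1, which read 7.06, 9.01 and 7.29 in NFAT5-deficient HSC, 8.10, 6.86 and 7.57 in wild-type HSC, 6.71, 9.54 and 6.99 in NFAT5-deficient MPP and 6.57, 8.17 and 6.73 in wild-type MPP. Array 70 held the highest Ccne1 value in both NFAT5-deficient populations, and array 67 the highest in wild-type MPP. Such spread left wide HSC minus MPP intervals for genes like Ccne1, Ccne2, Gins1 and Prim2. In that order, the 95% confidence intervals were -1.03 to 1.42, -1.60 to 0.71, -1.28 to 0.94 and -1.18 to 0.91. Those intervals are not adjusted for the number of genes. A call at an adjusted p under 0.05 would thus take a difference well over 1 log2 unit for these genes.

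Sequence and response could be set side by side for 37 measured genes with a promoter window. The 13 with an E2F octamer had a median HSC minus MPP difference of -0.28 (12 of 13 lower) and the 24 without one -0.21 (21 of 24 lower). For NFAT5-deficient minus wild-type, averaged over the populations, the medians were 0.06 (9 of 13 higher) and 0.24 (21 of 24 higher). These are descriptions, with no test.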

How the data were processed

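Total RNA of 12 samples was measured on 1-colour arrays. The authors deposited log2 intensities, 1 value per probe set and array, as read from the values (2.51 to 13.28); RMA and limma appear in the submitters' processing notes, with no role stated. Background correction and normalization were not repeated. No scan dates or scanner files were used here, and arrays have no depth: their number, 3 a group, limits the precision. Symbols came from the platform annotation: 19527 of 22142 probe sets had 1, 2615 none and 0 several. For the 33 genes with several probe sets the brightest was used, which left 19494 genes.

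A mean for each of 4 groups was fitted to all 12 arrays with limma 3.58.1 in R 4.3.3 (eBayes with an intensity trend), and p-values were adjusted by Benjamini-Hochberg over all named genes. Calls are adjusted p-values under 0.05. A level of 6.15, the 40th percentile of gene means, marked dim genes, which stayed in the fit. The fit was also run on simulated data with known changes. Deviations there were shuffled within each gene, so array effects shared by genes were not kept, and the calls given here were not checked. The genes and comparison lists were chosen with earlier results of these data known. Values on every array are given for called genes of the 46 and otherwise for up to 6 with the smallest p in a comparison (Ccne1 was added after its values were seen); from each other list, called genes or up to 2 with the smallest p were eligible. Promoters are RefSeq's (GRCm38.p6), searched with Python 3.11.15; drawings used matplotlib 3.10.9. Alternatives were a dim-gene filter, other eBayes settings, fits of the compared groups, centring, quantile normalization, array weights, averaged probe sets, a block for the array number, and leaving out arrays.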

Additional observations from a re-analysis of the deposited data

How the results depend on the processing

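With both genotypes averaged, the HSC minus MPP call of Pola1 (1 gene of the 45) became 0 calls under quantile normalization (-0.74, adjusted p = 0.0642), with the array number as a replicate block (adjusted p = 0.115) and without both wild-type HSC arrays 66 and 67. With 1 array left out the count ran from 0 to 2, with Fen1 called without NFAT5-deficient MPP array 70 or wild-type MPP array 66. Array numbers were not taken as pairing HSC with MPP in the main fit, which counts them as separate samples. Deviations from the group means correlated at -0.014 to 0.064 and 2 of 6 arrays matched their own number best, which cannot exclude shared animals. Some values followed the number in both populations: neutrophil means were highest on wild-type arrays 66 and 67, and Ccne1 was highest on NFAT5-deficient array 70 within its groups. No other call among the 45 changed under the block. Medians over the 45 genes kept their sign in every setting except that of the HSC effect minus the MPP effect (0.06), which was -0.032 without both wild-type HSC arrays 66 and 67 and -0.052 (without wild-type MPP array 75) to 0.121 (without wild-type MPP array 67) with 1 array left out. The HSC minus MPP median in wild-type cells was -0.17 without those 2 arrays and -0.35 to -0.13 with 1 left out; in NFAT5-deficient cells it was -0.36 to -0.22. Genotype medians with 1 array left out were 0.16 to 0.31 in HSC and 0.05 to 0.19 in MPP. Counts over all genes moved more. HSC minus MPP with genotypes averaged (119) gave 52 under the block and 71 to 112 with 1 array left out. In NFAT5-deficient cells (41) it gave 23 with robust eBayes, 12 with only the compared groups, 24 under quantile normalization, 3 under the block and 5 to 24 with 1 left out; in wild-type cells (32) it gave 9 with only the compared groups, 5 under the block, 60 without both arrays and 11 to 29 with 1 left out. The genotype comparison in MPP (1) gave 0 with dim genes left out, 0 with only the compared groups, 3 after centring, 2 after quantile normalization, 6 with array weights and 0 to 4 with 1 left out. In HSC (0) it gave 30 without both arrays and 0 to 3 with 1 left out, averaged (0) 13 and 0 to 2, and the difference of effects (0) 1 with dim genes left out, 9 without both arrays and 0 to 1 with 1 left out. Genes without overlap in both genotypes, HSC lower, were 4 after centring (2 otherwise), and 10 in NFAT5-deficient cells (4 otherwise). The shares of all genes, 0.964% and 5.39%, belong to the uncentred values. Shares after centring are not given here, so the counts after centring cannot be set against a background. The cause of these changes in counts was not tested.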

Other observations

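On NFAT5-deficient HSC array 70, the means of the replication and mitotic lists parted. The mean of 23 G2/M and mitosis genes read 9.17, 8.06 and 9.06 in NFAT5-deficient HSC, against 8.76, 9.02 and 8.74 in wild-type HSC. Array 70, at 8.06, was the lowest of all 12 arrays for mitotic genes, while the mean of the 45 replication genes on it (8.84) was the highest of the HSC arrays. The roles were not alike on it. Among NFAT5-deficient HSC arrays it was highest for MCM2-7, single-strand binding, polymerase and primase, Okazaki fragment and nucleotide supply genes. It was lowest there for recognition and licensing, origin firing, and clamp and clamp loader genes. In MPP the mitotic mean read 9.64, 9.01 and 9.46 on NFAT5-deficient arrays, against 9.16, 9.37 and 9.18 on wild-type arrays, with array 70 again the lowest. The replication mean of MPP array 70 (8.99) was also the lowest of the NFAT5-deficient MPP arrays, so the lists did not part there.

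Ska3, a kinetochore gene that was lower in HSC, read 7.12, 6.44 and 7.02 in NFAT5-deficient HSC, against 4.88, 6.18 and 5.09 in wild-type HSC, and 8.39, 8.29 and 8.39 in NFAT5-deficient MPP, against 7.43, 8.55 and 7.61 in wild-type MPP. The HSC groups did not overlap, and the genotype difference averaged over the populations was 0.99 (limma adjusted p = 0.622), which did not pass.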
